A study of Mus musculus with 4 samples.

Results

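Cajal-Retzius neurons were described here as 51 barcodes among 6281 barcodes with at least 200 genes, from droplet-based single-cell RNA sequencing of mouse hippocampus. They were chosen by their UMIs, the unique molecular identifiers that mark each captured RNA molecule. A barcode was selected on at least 5 UMIs of Reln, Ndnf, Lhx1, Trp73 and Nhlh2 together, at least 3 of them from Ndnf, Lhx1 and Trp73. It also had to hold at most 2 UMIs of P2ry12, Cx3cr1, Mog, Pdgfra, Gja1 and Cldn5 together, which mark microglia, oligodendrocytes, their precursors, astrocytes and endothelial cells. The 5 genes are called the genes of the rule below.

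The mice were males at 3 months of age, on a C57BL/6J background by repeated backcrossing. A Dp(10)2Yey mouse carries, on 1 copy of chromosome 10, a second copy of the segment that corresponds to part of human chromosome 21, and WT littermates lack it. Each genotype gave 2 mice and 1 library came from each mouse, after the hippocampus had been dissociated with enzymes at a warm temperature. Both preparation days held a mouse of each genotype, and the text of the study does not say which replicate numbers share a day. WT replicate 1 had 3002546 UMIs in 1039 barcodes and WT replicate 2 had 6848466 UMIs in 1708 barcodes. Dp(10)2Yey replicate 1 had 5112759 UMIs in 1372 barcodes and Dp(10)2Yey replicate 2 had 9612011 UMIs in 2345 barcodes. Of the barcode strings, 8 occurred in more than 1 library, and 0 of the Cajal-Retzius barcodes were among them.

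Cajal-Retzius cells are early-born neurons of the surface of the developing cortex and hippocampus, known for secreting Reelin, the glycoprotein that steers the placement of migrating neurons. They release glutamate, arise mainly from sources at the edge of the cortical sheet such as the cortical hem, and depend on the p53 relative p73. Most of them die after birth in the neocortex, while in the hippocampus many persist along the hippocampal fissure and in the molecular layer of the dentate gyrus.

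WT replicate 1 gave 8 Cajal-Retzius barcodes, which were 0.783% of its barcodes with at least 200 genes (95% exact binomial interval 0.339 to 1.54). WT replicate 2 gave 19, or 1.13% (0.680 to 1.75). Dp(10)2Yey replicate 1 gave 9, or 0.664% (0.304 to 1.26), and Dp(10)2Yey replicate 2 gave 15, or 0.676% (0.379 to 1.11). Both WT shares were above both Dp(10)2Yey shares, and all 4 intervals overlapped. That order was lost under 2 other forms of the rule. The first left Reln out and also lowered the required sum, to at least 3 UMIs of Ndnf, Lhx1, Trp73 and Nhlh2. It gave 8 and 20 barcodes in WT and 11 and 17 in Dp(10)2Yey, replicate 1 first. The second, with no limit on other cell types, gave 11, 25, 10 and 26 in the same order. In both cases the shares of the genotypes overlapped. As a share of the neuron barcodes, which are the Cajal-Retzius, immature and other mature neurons together, the values were 25.8% and 19.6% in WT replicates 1 and 2 and 22.0% and 16.5% in Dp(10)2Yey replicates 1 and 2. On that scale the genotypes overlapped. With 2 libraries against 2 the smallest p that an exact two-sided permutation test can give is 0.33, so no genotype difference was tested. Over all libraries the share was 0.812% (0.605 to 1.07).

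The 51 barcodes held 223078 UMIs, which is 0.939% of the UMIs of all kept barcodes. WT replicates 1 and 2 contributed 41313 and 76523 of them, and Dp(10)2Yey replicates 1 and 2 contributed 28339 and 76903. A median barcode held 3852 UMIs and 1743 genes, and 4.17% of its UMIs were mitochondrial. Totals ran from 909 to 16786 UMIs, 2 barcodes had over 20% mitochondrial UMIs, and 0 were called as doublets.

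The genes of the rule chose these barcodes, so their values are a description without a test. Ndnf, a secreted factor with neurotrophic activity (ENSMUSG00000049001, chr6:65671590-65712326, here and below in GRCm38), had 773 UMIs in 50 of the 51 barcodes, with a median of 13 per barcode. Reln (ENSMUSG00000042453, chr5:21884454-22344702) had 409 UMIs in 49 barcodes, with a median of 7. The 3 transcription factors of the rule were lower: Nhlh2, of the basic helix-loop-helix family, had 174 UMIs in 46 barcodes. Lhx1, a LIM homeodomain factor, had 167 UMIs in 42 barcodes, and Trp73, which encodes p73, had 99 in 42. All 5 genes had a UMI in 35 of the 51 barcodes.

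Levels below are in CPM, the UMIs of a gene scaled to a common total, from the summed barcodes of a class in 1 library. The 2 values of a genotype are those of its replicates 1 and 2, in this order. Ndnf stood at 3655 and 3202 CPM in WT and 3529 and 3602 in Dp(10)2Yey. Reln stood at 1767 and 1908 CPM in WT and 2400 and 1586 in Dp(10)2Yey. Neither gene separated the genotypes, and Dp(10)2Yey replicate 1 had the highest Reln. Lhx1 was at 968 and 666 CPM in WT and 953 and 637 in Dp(10)2Yey. Trp73 was at 557 and 340 CPM in WT and 529 and 455 in Dp(10)2Yey. Both were higher in the first replicate of each genotype than in the second. Nhlh2 was at 726 and 745 CPM in WT and 1411 and 611 in Dp(10)2Yey, highest in Dp(10)2Yey replicate 1.

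At the edge of the rule, 2 members held the lowest allowed sum of 5 UMIs over the 5 genes, and the lowest sum over Ndnf, Lhx1 and Trp73 was 4. Just outside, among barcodes within the limit on other cell types, lay 1 with a sum of 3 or 4 that had at least 2 UMIs of Ndnf, Lhx1 and Trp73, and 1 with a sufficient sum but fewer than 3 UMIs of these 3 genes. The limit on genes of other cell types kept out 21 barcodes that met both sums. Among these 21, Ndnf was the sole gene of the rule in 18, Cldn5, the endothelial claudin, exceeded 2 UMIs in 16, and Lhx1 or Nhlh2 was present in 3. Of the 51 members, 45 had 0 UMIs of the 6 genes of other types.

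**Figure D1:**
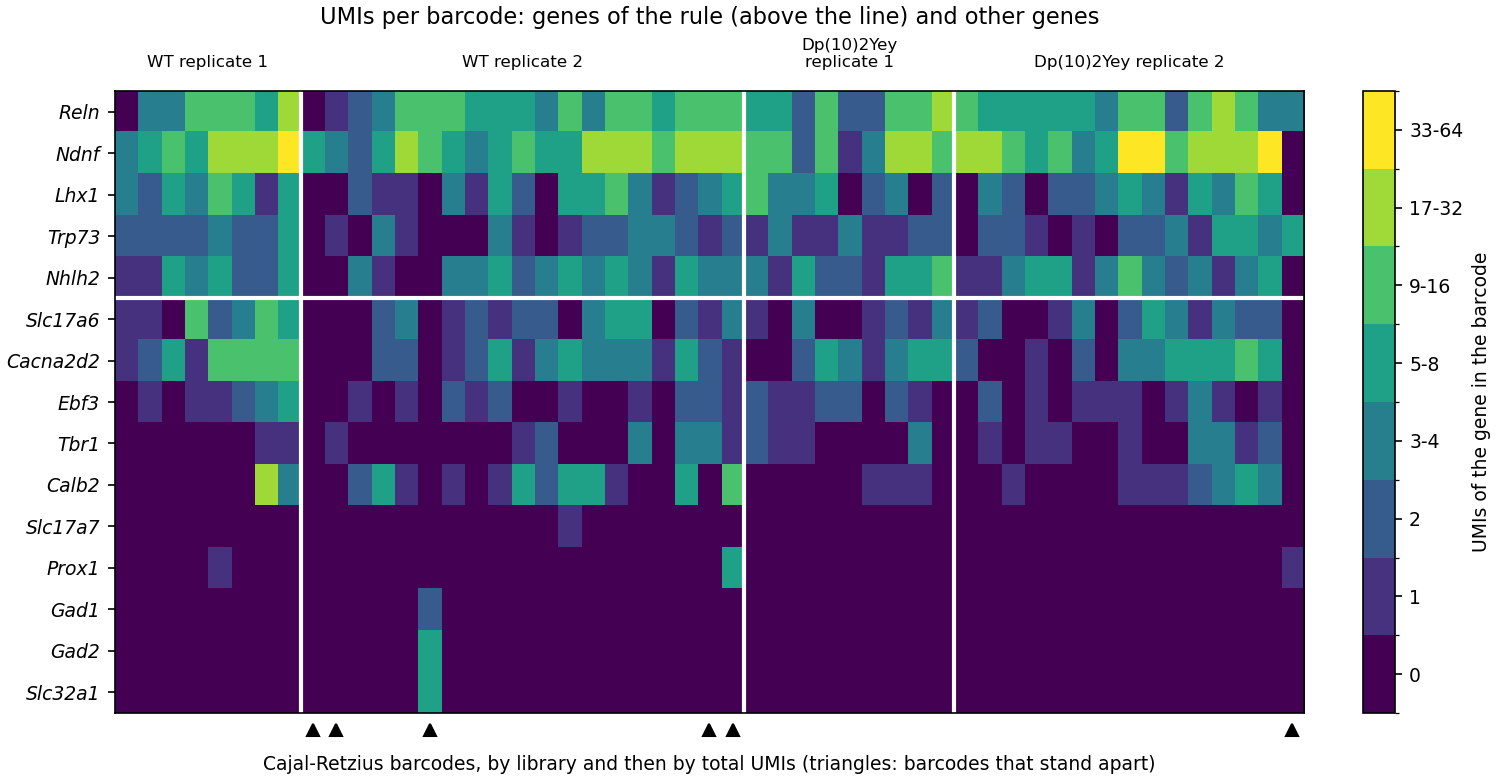
Each column is 1 of the 51 Cajal-Retzius barcodes, grouped by library and ordered by total UMIs, each row is a gene, and the colour gives UMIs on a stepped scale. Slc17a6 has a UMI in 37 columns and Slc17a7 in 1, and the triangles mark the 6 barcodes that stand apart.

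A group of 6 barcodes stood apart from the other 45, by a criterion set after the values were seen: no UMI of Lhx1 or Nhlh2, or marker sums that also met the rule for immature neurons. WT replicate 2 held 5 of them. The smallest had 909 UMIs, with 5 of Ndnf as its sole gene of the rule and 8 of Apod, which encodes apolipoprotein D. A second had 2286 UMIs, with 3 of Ndnf and 1 each of Reln and Trp73. Another had 2721 UMIs, of which 25.1% were mitochondrial, and held 6 UMIs of Gad2, 7 of Slc32a1 and 31 of Cnr1, which encode a GABA-synthesizing enzyme, the vesicular GABA transporter and the cannabinoid receptor 1. The remaining pair in that library, with 8291 and 9367 UMIs, carried Lhx1 or Nhlh2 together with 12 and 8 UMIs of Igfbpl1 and 27 and 15 of Sox11, markers of newborn neurons. In Dp(10)2Yey replicate 2, 1 barcode of 16786 UMIs held 48 UMIs of Ccdc153, 40 of Tmem212, 11 of Foxj1 and 29 of S100b, genes of ependymal cells. It had 6 UMIs of Trp73 and 0 of Ndnf, and it made up 21.8% of the Cajal-Retzius UMIs of its library. Where a value or call depends much on these 6 barcodes, it is given with and without them. The 45 that remain fell as 8, 14, 9 and 14 in WT replicates 1 and 2 and Dp(10)2Yey replicates 1 and 2.

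Against this choice, the label was compared with 14 genes linked to Cajal-Retzius identity that the rule did not use. This list was chosen with earlier results of these data known, so it is not an independent check of the label. Microglia, 2587 barcodes with a median of 3737 UMIs, served as the class that should lack neuronal RNA. Other mature neurons were 85 barcodes with at least 5 UMIs of Snap25, Syt1 and Rbfox3 together, with a median of 4482 UMIs. By library they were few in the first replicates, with 6 in WT and 8 in Dp(10)2Yey, against 43 and 28 in the second. A sum this high is also met by 24 of the 51 Cajal-Retzius barcodes, which were kept out of that class. Immature neurons were 124 barcodes with at least 5 UMIs of Igfbpl1, Sox11, Dcx and Neurod1, at least 2 of them from Igfbpl1 and Dcx, with a median of 4242.5 UMIs. Of the other mature neurons, 5 had at least 3 UMIs of Gad1 and Gad2.

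Slc17a6 (ENSMUSG00000030500, chr7:51622006-51671119) encodes the vesicular glutamate transporter VGLUT2, and Slc17a7 encodes VGLUT1, the form of most granule and pyramidal neurons. In the Cajal-Retzius barcodes Slc17a6 stood at 726 and 431 CPM in WT and 388 and 338 in Dp(10)2Yey. In other mature neurons it stood at 57.4 and 8.99 CPM in WT and 0 and 12.9 in Dp(10)2Yey. The lowest Cajal-Retzius value was above the highest of the other mature neurons. A Slc17a6 UMI was present in 72.5% (95% interval 58.3 to 84.1) of Cajal-Retzius barcodes and in 0.0387% of microglia. At an equal depth of 1500 UMIs per barcode, which left out 2 Cajal-Retzius and 516 microglia barcodes, the shares were 44.9% and 0.0483%. Slc17a7 had 1 UMI in the 51 barcodes, and other mature neurons held it at 636 to 791 CPM.

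Among transcription factors, Ebf3 (ENSMUSG00000010476, chr7:137193673-137314445), of the early B cell factor family, had 50 UMIs in 32 of the 51 barcodes, at 315 and 183 CPM in WT and 388 and 156 in Dp(10)2Yey. It had 0 UMIs in both other neuron classes, and 7.34% of microglia had a UMI against 62.7% of Cajal-Retzius barcodes. Zic1 (ENSMUSG00000032368, chr9:91358058-91365810), a zinc finger factor of the dorsal midline, had 49 UMIs in 27 barcodes, at 169 and 196 CPM in WT and 423 and 195 in Dp(10)2Yey. For both, Dp(10)2Yey replicate 1 was highest. Emx2, a homeobox factor of the cortical sheet and hem, had 101 UMIs in 40 barcodes. Tbr1, a T-box factor of early glutamatergic neurons, had 36 UMIs in 21, and the homeobox factor Barhl2 had 24 in 15. Lhx5 and Nhlh1, relatives of Lhx1 and Nhlh2, had 12 and 16 UMIs in 10 barcodes each. Ebf1 had 5 UMIs, all in 1 barcode, and Ebf2 had 0 in 51, which allows a share of up to 5.88% of barcodes with a UMI.

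Cacna2d2 (ENSMUSG00000010066, chr9:107399612-107529343), an auxiliary subunit of voltage-gated calcium channels, was the most abundant of the 14 genes, with 169 UMIs in 40 barcodes. It stood at 1428 and 536 CPM in WT and 917 and 559 in Dp(10)2Yey. WT replicate 1 was highest, and each library lay above 500 CPM. Calb2, which encodes calretinin, had 94 UMIs in 25 barcodes, and in WT replicate 1 a single barcode held 18 of its 21 UMIs. Cxcr4, the receptor of the chemokine Cxcl12, had 27 UMIs in 20 barcodes, and the proteoglycan gene Spock1 had 8. Of the 14 genes, 13 therefore had a UMI in these barcodes.

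Neurogliaform interneurons share Ndnf and Reln with Cajal-Retzius cells, so genes of GABA synthesis and release were counted. Gad1, Gad2 and Slc32a1 had 2, 6 and 7 UMIs, all in the 1 barcode of WT replicate 2 described above, and Lamp5, a neurogliaform marker, had 0. Over the 18 interneuron genes, 9 were at 0 in the 51 barcodes, and 14 were at 0 in the 45 without those that stand apart. The most abundant of the 18 was Id2, a transcriptional regulator found in many cell types, with 58 of their 158 UMIs. Summed, the 18 genes stood at 363 and 1163 CPM in WT and 670 and 455 in Dp(10)2Yey, and at 472 in WT replicate 2 without the barcodes that stand apart. Prox1, the granule cell homeobox factor, had 10 UMIs in 3 barcodes, 8 of them in 1 barcode that stands apart.

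**Figure D2:**
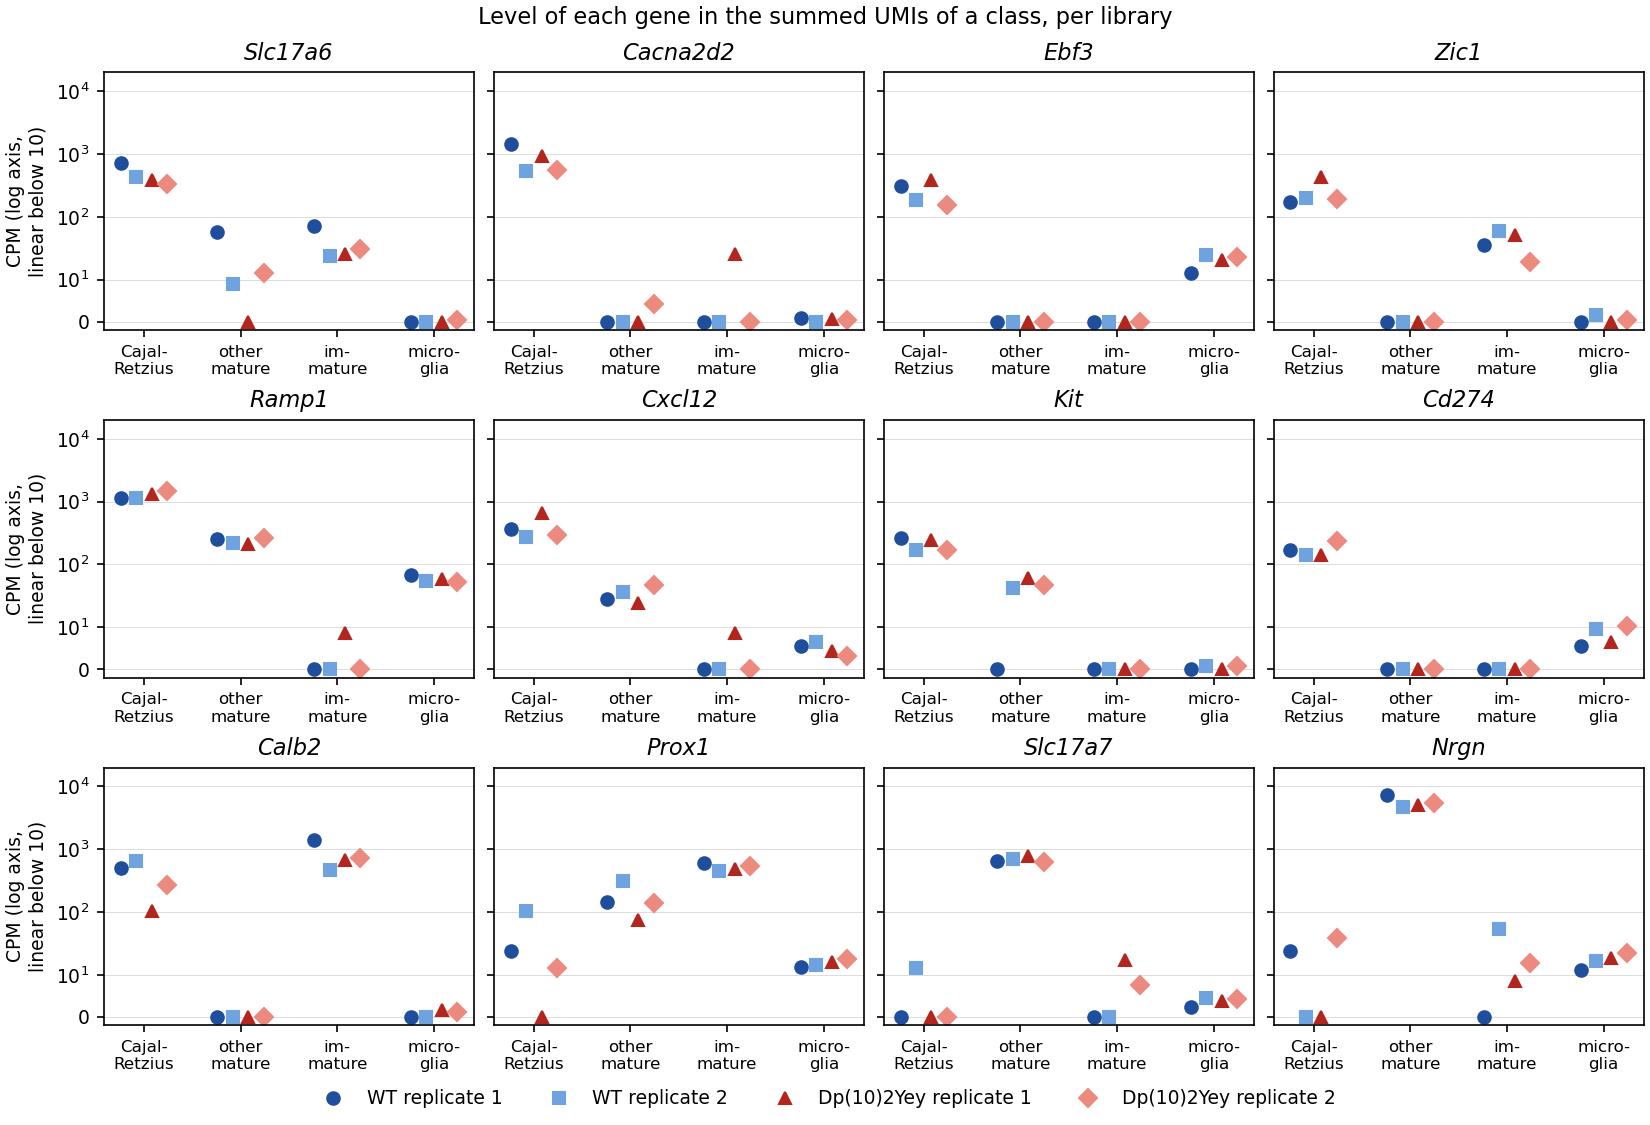
Each panel shows 1 gene, with its level in CPM (log axis, linear below 10) in the summed barcodes of 4 classes, and each marker is 1 library. Slc17a6 lies between 338 and 726 CPM in Cajal-Retzius barcodes and at or below 70.4 in the other classes, while Nrgn is at or above 4697 in other mature neurons alone.

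Markers of microglia and vessels were sparse, and those of other glia less so. The 6 microglia markers summed to 8 UMIs, with the defining genes Tmem119 and Csf1r at 0. They stood at 48.4 and 26.1 CPM in WT and 0 and 52.0 in Dp(10)2Yey. Over all libraries the level was 35.9 CPM, against 55.7 in other mature and 41.7 in immature neurons. The 5 oligodendrocyte markers summed to 97 UMIs, 51 of them Mbp, the myelin basic protein, with Mag at 0, and to 436 and 418 CPM in WT and 353 and 481 in Dp(10)2Yey. The libraries were close to each other in this sum. Over all libraries it was 435 CPM, against 391 in other mature and 198 in immature neurons. The 3 markers of oligodendrocyte precursors had 30 UMIs, 23 of them C1ql1, at 145 and 170 CPM in WT and 141 and 91.0 in Dp(10)2Yey. The 4 astrocyte markers had 69, led by the glutamate transporter Slc1a2 with 44, at 169 and 274 CPM in WT and 459 and 364 in Dp(10)2Yey. Over all libraries they stood at 309 CPM, against 441 in other mature and 587 in immature neurons. These sums were not tested between classes. Without the barcodes that stand apart the astrocyte sum was 43 UMIs, with Dp(10)2Yey replicate 2 at 200 CPM, and Aqp4 was at 0. The 4 endothelial markers had 2 UMIs with Pecam1 and Cdh5 at 0, and the 4 meningeal markers had 3 UMIs, all in 1 barcode that stands apart. Of the 9 UMIs of the 3 choroid plexus markers, 6 were Folr1 in 1 barcode, and the 4 globin genes summed to 10 UMIs, 8 of them in Dp(10)2Yey replicate 2. The part that RNA of other cells has in the levels of these genes was not tested.

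Against other mature neurons, the Cajal-Retzius barcodes had more RNA of Cacna2d2, Slc17a6 and Emx2, among others. They had less RNA of synaptic genes such as Gria2, Nrgn and Camk2a. UMIs were summed per library and class, so that the 4 mice were the units, and compared by edgeR's quasi-likelihood test with a library term, two-sided, with Benjamini-Hochberg adjustment and a threshold of 0.01. The genes that chose either class were not tested. Of 1420 genes tested, 235 (16.5%) were higher and 245 (17.3%) lower in the Cajal-Retzius barcodes, with a median log2 fold change of 0.01 over all. Without the 6 barcodes that stand apart, 197 of 991 genes were higher and 229 lower, and 367 of the original 480 calls were made again. Without WT replicate 2, which holds 43 of the 85 other mature neurons, the calls fell to 295, of which 135 were higher. Positive values below mean higher in Cajal-Retzius barcodes.

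Of the genes named by rule, the 10 largest rises and falls in this comparison, Cacna2d2 led the rises. Other mature neurons held 0, 0, 0 and 4.30 CPM of it in the 4 libraries, 1 UMI in all, against the Cajal-Retzius values above. The ratio of levels was 517 (95% interval 91.5 to 20527), with log2 fold change 8.04 ± 0.43 SE, adjusted p = 3.53e-10, higher in all 4 libraries by edgeR's quasi-likelihood test with Benjamini-Hochberg adjustment. Lhx1os (ENSMUSG00000087211, chr11:84525660-84535831), a noncoding RNA beside Lhx1, was at 460 and 248 CPM in WT and 459 and 208 in Dp(10)2Yey. It had 0 UMIs in other mature neurons, so its level was at least 68.3-fold higher. Zic1, Ebf3 and Cd274 were also at 0 there, which gave at least 49.9-fold, 51.0-fold and 40.8-fold. For a gene at 0 the fold is a lower bound against a floor of 3 UMIs in that class, and its fitted log2 fold change is not a bound. Cd274 (ENSMUSG00000016496, chr19:29367455-29388095) encodes PD-L1, the ligand of an inhibitory receptor on T cells, and stood at 169 and 144 CPM in WT and 141 and 234 in Dp(10)2Yey. It had a UMI in 47.1% of Cajal-Retzius barcodes and 2.78% of microglia.

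The other rises had UMIs in both classes. Cdh4, the adhesion molecule R-cadherin, stood at 242 and 196 CPM in WT and 176 and 156 in Dp(10)2Yey against 0 to 24.7 in other mature neurons, a ratio of 64.2 (95% interval 16.7 to 548). Dusp1, a phosphatase that switches off MAP kinases, stood at 266 and 327 CPM in WT and 1200 and 286 in Dp(10)2Yey. The high library was Dp(10)2Yey replicate 1, and the fitted log2 fold change was 5.43. Sox4, a transcription factor of young neurons, Cd63, a tetraspanin of late endosomes, and Ifitm2, an interferon-induced membrane protein, had log2 fold changes of 5.07, 5.16 and 5.07. In the fit without the barcodes that stand apart, Cdh4, Zic1, Cd274 and Sox4 fell below the filter on low counts, and Cacna2d2 was at 8.16, Ebf3 at 7.61 and Cd63 at 4.58. Cacna2d2, Ebf3, Zic1, Dusp1 and Sox4 each overlap a gene on the other strand and Ifitm2 one on its own strand, and how the counting used strand is not stated. An overlap with a gene on the other strand also holds for Reln, Trp73, Ano3, Arpp21, Ccnd2, Dync1i1, Eomes, Ezh2, Syndig1l and 5330417C22Rik.

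Among the falls, C1ql3 (ENSMUSG00000049630, chr2:13003457-13011806), a secreted synaptic protein, had 0 UMIs in the Cajal-Retzius barcodes. Other mature neurons had 1167 UMIs of it, at 2669 and 1808 CPM in WT and 618 and 1809 in Dp(10)2Yey, which makes it at least 127-fold lower. Nrgn (ENSMUSG00000053310, chr9:37544492-37552904), which encodes the calmodulin-binding protein neurogranin, was at 24.2 and 0 CPM in WT and 0 and 39.0 in Dp(10)2Yey. In other mature neurons Nrgn stood at 7203 and 4697 CPM in WT and 5168 and 5518 in Dp(10)2Yey. All 4 libraries were lower in the Cajal-Retzius barcodes (log2 fold change -8.12 ± 0.37 SE, adjusted p = 7.44e-11; edgeR's quasi-likelihood test with Benjamini-Hochberg adjustment). Gria3, an AMPA receptor subunit, and Grm5, a metabotropic glutamate receptor, were at 0 and at least 41.9-fold and 41.8-fold lower. The tyrosine kinase gene Ptk2b, the splicing regulator Rbfox1 and the transcription factor Bcl11b were at 0 and at least 30.3-fold, 27.8-fold and 26.5-fold lower. Ano3, of the anoctamin family, the inositol trisphosphate kinase Itpka and the cAMP-regulated phosphoprotein Arpp21 were at 0 too, at least 17.2-fold lower in each case. The tested ones kept their direction without the barcodes that stand apart, where Ano3 and Arpp21 were not tested.

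Members of gene lists were then counted by direction, and the medians below stand beside the 0.01 of all genes. In this comparison, counts without the barcodes that stand apart stand beside 197 of 991 genes higher and 229 lower in that fit. A gene near 0 in 1 class passes the filter on low counts through the other class alone, so its direction is set by passing, and the counts below describe such genes without being support. Of the 14 identity genes, 5 passed the filter and were higher than in other mature neurons, beside 16.5% of all genes. They were Slc17a6, Ebf3, Cacna2d2, Emx2 and Zic1, and their median log2 fold change was 7.62, or 5.64 with genes at 0 set to their bound, against 0.01 over all genes tested. All 5 passed through the Cajal-Retzius barcodes. In other mature neurons Ebf3, Zic1, Cacna2d2 and Slc17a6 had at most 8 UMIs and Emx2 had 20. The other 9 were not tested, and without the barcodes that stand apart 4 of 4 were higher. Slc17a6 had log2 fold change 5.07 ± 0.41 SE, adjusted p = 4.07e-08, by edgeR's quasi-likelihood test with Benjamini-Hochberg adjustment, and was higher in 4 of 4 libraries. Emx2 stood at 315 and 575 CPM in WT and 494 and 390 in Dp(10)2Yey against 0 to 39.0, with a log2 fold change of 4.15.

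Of 8 genes of glutamate handling, 5 were tested. The pair Slc17a6 and Slc38a2, a neutral amino acid transporter, was higher, 2 of 5 beside 16.5% of all genes. The other 3, Slc17a7 and the aminotransferase Got1 among them, were lower, 3 of 5 beside 17.3% of all genes. Slc17a7 stood at 0 and 13.1 CPM in WT and 0 and 0 in Dp(10)2Yey, and the level in other mature neurons was higher by a ratio of 153 (95% interval 27.4 to 6072). The median of the 5 was -2.17.

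Receptors for glutamate and GABA were counted next. Of 19 glutamate receptor genes, 6 passed the filter and these 6 were lower, beside 17.3% of all genes. Their median log2 fold change was -5.79, or -5.39 with bounds, beside 0.01 over all genes. They were also lower without the barcodes that stand apart. Gria3, Grm5, Grin2a and Grin2b, with 0 to 6 UMIs in the Cajal-Retzius barcodes, passed through the other mature neurons. So did Gria1, with 22 UMIs, and the count rests on Gria2 alone for its direction. Gria2, the AMPA subunit that sets calcium permeability, was the most abundant, at 387 and 575 CPM in WT and 600 and 416 in Dp(10)2Yey. In other mature neurons Gria2 stood at 1808 and 2611 CPM in WT and 2040 and 2514 in Dp(10)2Yey. The classes did not overlap (log2 fold change -2.14 ± 0.20 SE, adjusted p = 1.77e-07; edgeR's quasi-likelihood test with Benjamini-Hochberg adjustment; lower in 4 of 4 libraries). In WT replicate 2 Gria2 was at 340 CPM without the barcodes that stand apart, and the log2 fold change was then -2.38. The NMDA subunit Grin2b had 6 UMIs, at 0 and 65.3 CPM in WT and 0 and 13.0 in Dp(10)2Yey against 1238 to 1636. Its log2 fold change was -5.61, and -7.81 without the barcodes that stand apart. Of 16 GABA and glycine receptor genes, 7 were tested and 5 were lower, beside 17.3% of all genes, with a median of -2.84, and 3 of 3 without those barcodes. Gabra4 and Gabra5, alpha subunits of the GABA-A receptor, had 0 UMIs and were not tested without those barcodes. Gabbr1, of the GABA-B receptor, did not pass (adjusted p = 0.0113 by edgeR's quasi-likelihood test with Benjamini-Hochberg adjustment), with a log2 fold change of -0.97. It was called lower without the barcodes that stand apart (-1.11, adjusted p = 0.00121 by edgeR's quasi-likelihood test with Benjamini-Hochberg adjustment).

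**Figure D3:**
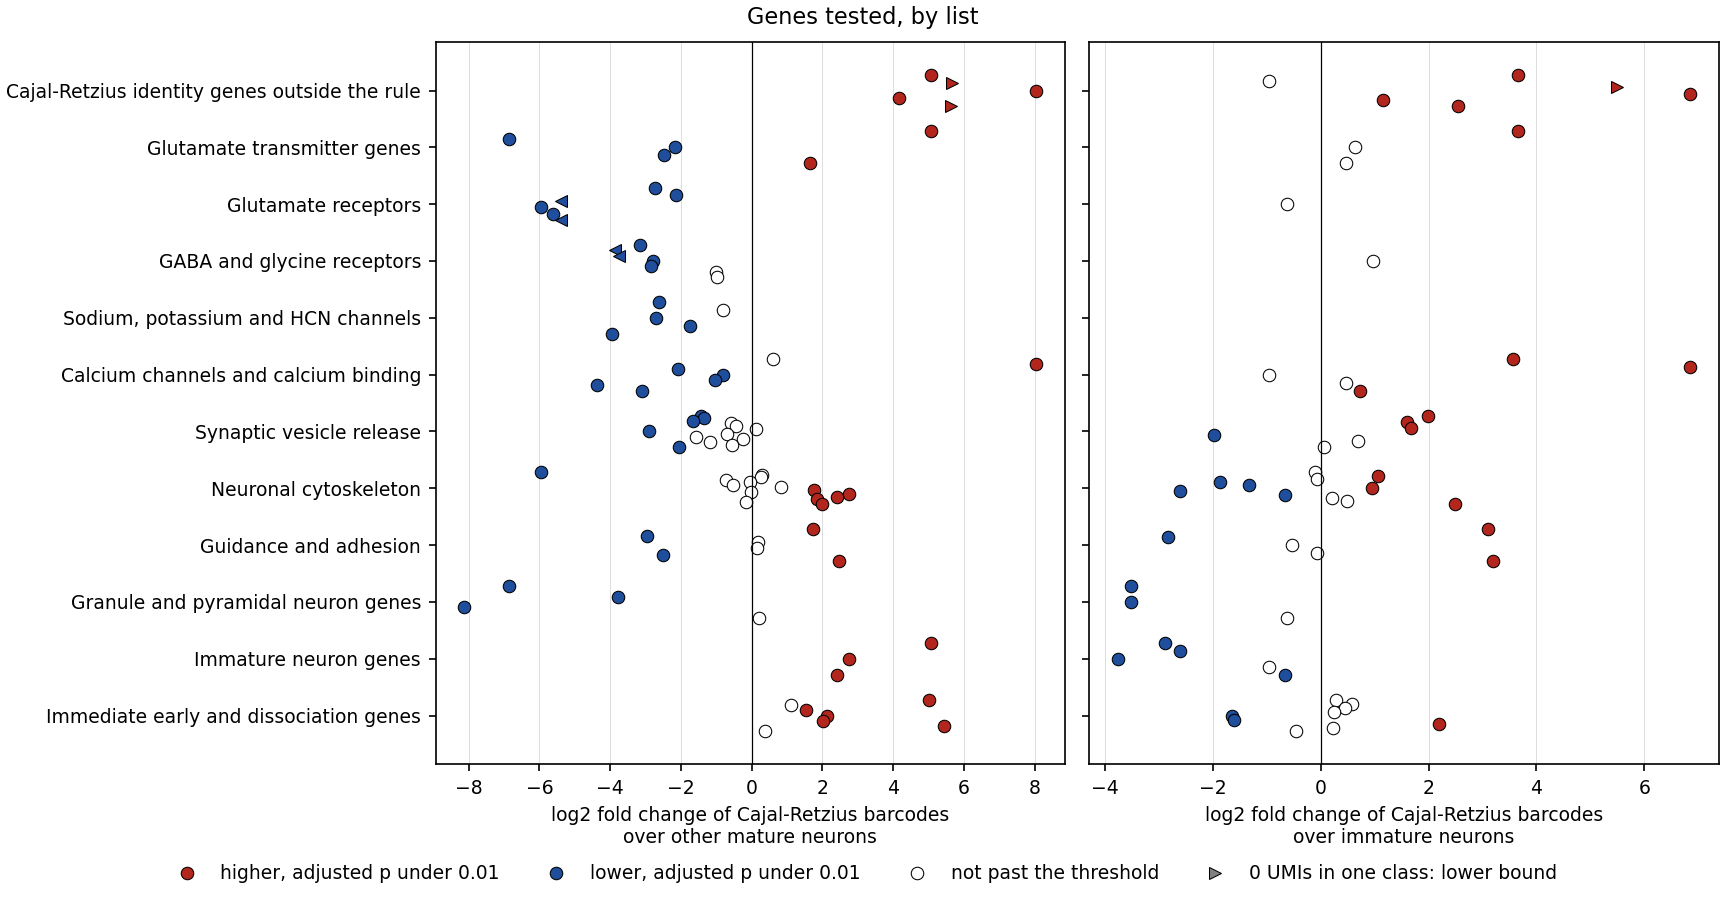
Each point is a gene of a list that passed the filter on low counts, placed by its log2 fold change of Cajal-Retzius barcodes over other mature neurons (left) and immature neurons (right), with arrowheads for lower bounds. In the left panel the 6 glutamate receptor genes that passed lie left of 0 and the 5 identity genes right of it, most of them near 0 UMIs in 1 of the classes.

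Slc12a5, the chloride exporter KCC2 of mature neurons, stood at 0 and 39.2 CPM in WT and 0 and 39.0 in Dp(10)2Yey, from 6 UMIs. In other mature neurons it stood at 230 and 246 CPM in WT and 272 and 275 in Dp(10)2Yey. Both first replicates were at 0, and the log2 fold change was -3.10, -3.93 without the barcodes that stand apart. A Slc12a5 UMI was found in 7.84% (95% interval 2.18 to 18.9) of Cajal-Retzius barcodes, 64.7% of other mature neurons and 0 of 124 immature neurons, which allows a share of up to 2.42%. In microglia the share was 0.348%. Slc12a2, the chloride importer NKCC1, had a UMI in 5.88% (95% interval 1.23 to 16.2) of Cajal-Retzius barcodes and 23.9% of microglia. Its share was 15.3% (8.40 to 24.7) in other mature and 16.9% (10.8 to 24.7) in immature neurons. The Cajal-Retzius share was the lowest of the 4, but its interval overlapped those of both other neuron classes. At the equal depth used for Slc17a6, the shares were 0 of 49 Cajal-Retzius barcodes, 5.06% of other mature and 3.48% of immature neurons. The order among the neuron classes is therefore not resolved. Of the 6 chloride transporter genes, 2 were tested. Slc12a5 was lower, 1 of 2 beside 17.3% of all genes, and the chloride-proton exchanger Clcn3 did not pass.

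Of 20 sodium, potassium and HCN channel genes, 5 were tested and 4 were lower, beside 17.3% of all genes, with a median of -2.62. The sodium channel gene Scn2a was at 169 and 78.4 CPM in WT and 0 and 13.0 in Dp(10)2Yey against 334 to 453, and its log2 fold change was -2.62. Scn8a, another sodium channel gene, had a log2 fold change of -2.70 and was not tested without the barcodes that stand apart. Kcnq3, of the M-current channel, had 3 UMIs, all in barcodes that stand apart, and was higher in other mature neurons by a ratio of 18.3 (95% interval 6.16 to 89.7). Its fitted log2 fold change was -3.95, and -7.68 without them. Of 20 genes of calcium channels and calcium binding, 7 were tested, 1 was higher and 5 were lower, beside 16.5% and 17.3% of all genes, with a median of -1.04. The riser was Cacna2d2, while its relative Cacna2d1 did not pass, at 411 and 353 CPM in WT and 423 and 351 in Dp(10)2Yey against 86.1 to 315. The calcium sensors Ncald and Hpca fell, with log2 fold changes of -4.38 and -3.11, and -4.94 and -3.11 without the barcodes that stand apart.

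Of 22 genes of synaptic vesicle release, 13 were tested, 5 were lower and 0 higher, beside 17.3% and 16.5% of all genes, with a median of -1.19. The 45 barcodes that do not stand apart gave 8 of 12 lower, beside 229 of 991 genes in that fit. Syp, the vesicle protein synaptophysin, was at 242 and 209 CPM in WT and 176 and 130 in Dp(10)2Yey. In other mature neurons it was at 517 and 561 CPM in WT and 495 and 503 in Dp(10)2Yey, above each Cajal-Retzius value, with a log2 fold change of -1.43. Cplx2, the complexin that clamps fusion, was lower, with a log2 fold change of -2.90, and -3.30 without those barcodes. Vamp2, a core part of the fusion machinery, did not pass, with a log2 fold change of -0.44. Of the cytoskeleton genes, 14 of 16 were tested, 5 were higher and 1 lower, beside 16.5% and 17.3% of all genes. The 5 were the tubulins Tuba1a and Tubb2b, the stathmins Stmn1 and Stmn2, which bind tubulin, and Gap43, the growth cone protein. Gap43 stood at 1113 and 902 CPM in WT and 917 and 702 in Dp(10)2Yey against 86.1 to 408, with a log2 fold change of 1.98. Nefl, the light neurofilament subunit, had 1 UMI against 252, higher in other mature neurons by a ratio of 82.4 (95% interval 14.7 to 3268).

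Of 13 genes of granule and pyramidal neurons, 4 were tested and 3, Slc17a7, Camk2a and Nrgn, were lower, beside 17.3% of all genes, with a median of -5.32. Camk2a, the kinase of excitatory synapses, was at 0 and 91.5 CPM in WT and 0 and 65.0 in Dp(10)2Yey against 692 to 890, and it had 0 UMIs in both first replicates. Bhlhe22, a basic helix-loop-helix factor, did not pass, at 145 and 183 CPM in WT and 141 and 169 in Dp(10)2Yey. Without the barcodes that stand apart Bhlhe22 was at 94.4 CPM in WT replicate 2 and was not tested. Of 25 guidance and adhesion genes, 6 were tested, and Robo2, a Slit receptor, and Cntnap2, a neurexin relative, were higher, 2 of 6 beside 16.5% of all genes. Robo2 stood at 411 and 274 CPM in WT and 388 and 195 in Dp(10)2Yey against 61.8 to 143, a log2 fold change of 1.74. Epha5, an ephrin receptor, and the contactin gene Cntn1 fell, 2 of 6 beside 17.3% of all genes, at -2.96 and -2.50. Of 10 immature neuron genes, 4 belong to the rule of the immature class, and the 3 tested, Sox4, Tubb2b and Stmn1, were higher, beside 16.5% of all genes, with a median of 2.74.

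Immediate early and dissociation genes were higher than in other mature neurons for 5 of the 7 tested among 14, beside 16.5% of all genes, with a median of 2.00 beside 0.01, and for 6 of 7 without the barcodes that stand apart. Fos, a transcription factor induced by activity and by dissociation, stood at 1477 and 771 CPM in WT and 3141 and 741 in Dp(10)2Yey. Other mature neurons ranged from 0 to 198 CPM. The highest library in both classes was Dp(10)2Yey replicate 1, and the log2 fold change was 5.02. A Fos UMI was present in 64.7% of Cajal-Retzius barcodes, 10.6% of other mature neurons, 56.5% of immature neurons and 73.9% of microglia. The Cajal-Retzius share lay between those of immature neurons and microglia. Junb, Jund, Egr1 and Dusp1 were the other 4 that rose. The part of the dissociation in these levels was not tested.

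Against immature neurons, the Cajal-Retzius barcodes were higher in Ramp1, a gene of calcitonin-family receptors, and in Cxcl12 and Slc17a6. They were lower in genes of immature neurons such as Sox4, Tubb2b and Stmn1. Of 1255 genes tested in the same way, 195 (15.5%) were higher and 174 (13.9%) lower, with a median log2 fold change of -0.03. Without the barcodes that stand apart, 178 of 948 were higher and 185 lower, and 316 of the 369 calls were made again. List counts of this comparison without those barcodes stand beside these 178 and 185 of 948. Both comparisons use the same Cajal-Retzius sums, so they are not independent of each other.

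Ramp1 (ENSMUSG00000034353, chr1:91179822-91225196), a partner protein that forms the receptor for calcitonin gene-related peptide, stood at 1162 and 1124 CPM in WT and 1341 and 1469 in Dp(10)2Yey, with a UMI in 49 of 51 barcodes. Immature neurons had 1 UMI, a ratio of 766 (95% interval 136 to 30377). Ramp1 was also higher than in other mature neurons, where it stood at 258 and 219 CPM in WT and 210 and 262 in Dp(10)2Yey, with a log2 fold change of 2.51. In microglia 16.7% of barcodes had a UMI. Snhg11 (ENSMUSG00000044349, chr2:158375638-158386145), a noncoding RNA of neurons, was at 2421 and 1895 CPM in WT and 1764 and 1977 in Dp(10)2Yey against 0 to 17.1 in immature neurons. It was higher in 4 of 4 libraries (log2 fold change 7.48 ± 0.32 SE, adjusted p = 2.96e-12; edgeR's quasi-likelihood test with Benjamini-Hochberg adjustment).

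Cxcl12 (ENSMUSG00000061353, chr6:117168535-117181367), the chemokine that positions Cajal-Retzius cells and granule cell precursors, stood at 363 and 274 CPM in WT and 670 and 299 in Dp(10)2Yey. Immature neurons had 1 UMI, a ratio of 210 (95% interval 36.6 to 8390), and other mature neurons stood at 24.7 to 47.3 CPM, with a log2 fold change of 3.24. The high library was Dp(10)2Yey replicate 1. The receptor Cxcr4 was not tested in either comparison, at 121 and 91.5 CPM in WT and 212 and 117 in Dp(10)2Yey, with 36.1 to 106 in immature neurons and 0 in other mature neurons. A Cxcr4 UMI was present in 39.2% of Cajal-Retzius barcodes and 0.387% of microglia.

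Kit (ENSMUSG00000005672, chr5:75574916-75656722), the receptor of stem cell factor, was at 266 and 170 CPM in WT and 247 and 169 in Dp(10)2Yey and at 0 in immature neurons, at least 39.4-fold higher. Dync1i1, an intermediate chain of the dynein motor, and Rgs4, a regulator of G protein signalling, were also at 0 there, at least 72.6-fold and 44.8-fold higher. Ebf3 and Cd274 gave at least 44.8-fold and 35.9-fold. Cacna2d2, with 3 UMIs in immature neurons, had a ratio of 151 (95% interval 51.0 to 742), and Lhx1os, with 1, had 180 (95% interval 31.3 to 7222). Kit and Cd274 were not tested without the barcodes that stand apart, and the other 8 of the 10 rises were called there too.

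The largest fall was Meis2 (ENSMUSG00000027210, chr2:115863064-116065839), a homeobox factor, with 0 UMIs in Cajal-Retzius barcodes and 247 to 427 CPM in immature neurons, at least 24.5-fold lower. Ccnd2, the cyclin of neuronal progenitors, stood at 72.6 and 91.5 CPM in WT and 106 and 65.0 in Dp(10)2Yey. In immature neurons it stood at 405 and 2116 CPM in WT and 1429 and 1362 in Dp(10)2Yey. In every library the Cajal-Retzius value was lower (log2 fold change -4.04 ± 0.30 SE, adjusted p = 5.92e-09; edgeR's quasi-likelihood test with Benjamini-Hochberg adjustment). Hmgb2, a chromatin protein of dividing cells, and Mdk, the growth factor midkine, had log2 fold changes of -4.15 and -3.57, and -4.96 and -3.91 without the barcodes that stand apart. Scrt2, a zinc finger factor, Eomes, the T-box factor of intermediate progenitors, and Ezh2, a histone methyltransferase, had 2, 3 and 3 UMIs. They were higher in immature neurons by ratios of 19.5 (95% interval 5.27 to 163), 15.2 (95% interval 5.10 to 74.9) and 13.0 (95% interval 4.33 to 64.1). The fitted log2 fold change of Eomes was -3.76, and -4.89 without the barcodes that stand apart. The POU factor Pou3f3 had a log2 fold change of -4.03, and -5.54 without those barcodes. Scrt2 and Ezh2 were not tested without the barcodes that stand apart, and the other 8 falls were called there too.

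Prox1 was also among the 10 falls, and 9 of its 10 Cajal-Retzius UMIs lay in barcodes that stand apart. It was at 24.2 and 105 CPM in WT and 0 and 13.0 in Dp(10)2Yey against 457 to 616 in immature neurons. WT replicate 2 was highest and Dp(10)2Yey replicate 1 had 0 UMIs, and the classes did not overlap. Its log2 fold change was -3.51, and -6.29 without those barcodes. Prox1 overlaps its antisense gene Prox1os.

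By list, 6 of the 14 identity genes were tested against immature neurons and 5 were higher (beside 15.5% of all genes). Of these 5, Ebf3, Cacna2d2, Slc17a6 and Zic1 passed the filter through the Cajal-Retzius barcodes. They had 0, 3, 19 and 23 UMIs in immature neurons. The list had a median of 3.11 beside -0.03. Calb2 did not pass, with 508 and 640 CPM in WT and 106 and 273 in Dp(10)2Yey in Cajal-Retzius barcodes. In immature neurons Calb2 stood at 1391 and 469 CPM in WT and 676 and 727 in Dp(10)2Yey, so the classes overlapped (log2 fold change -0.97 ± 0.32 SE, adjusted p = 0.0204; edgeR's quasi-likelihood test with Benjamini-Hochberg adjustment; lower in 3 of 4 libraries). Emx2 and Zic1 were higher, with log2 fold changes of 1.16 and 2.55, and without the barcodes that stand apart 4 of 5 genes were higher and Zic1 was not tested. Slc17a6 stood at no more than 70.4 CPM in immature neurons, with a log2 fold change of 3.66.

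Of the 22 vesicle release genes, 6 were tested and 3 were higher, beside 15.5% of all genes, among them Vamp2 and Sv2a, a vesicle glycoprotein. Without the barcodes that stand apart 2 of 5 were higher and 1 lower, and Sv2a was not tested. Of the 6, 1 was lower, beside 13.9% of all genes, and this was Cplx2, at 24.2 and 78.4 CPM in WT and 176 and 91.0 in Dp(10)2Yey against 229 to 481. In WT replicate 2 Cplx2 was at 18.9 CPM without the barcodes that stand apart. Vamp2 was at 436 and 222 CPM in WT and 423 and 234 in Dp(10)2Yey against 48.1 to 211, with a log2 fold change of 1.61. Of 20 calcium genes, 5 were tested and Cacna2d1, Cacna2d2 and the calmodulin gene Calm2 were higher, 3 of 5 beside 15.5% of all genes, and 4 of 5 without those barcodes. Cacna2d1 stood at 0 to 85.5 CPM in immature neurons, with a log2 fold change of 3.56. Among 16 cytoskeleton genes, 11 were tested, 3 were higher and 4 lower, beside 15.5% and 13.9% of all genes, with a median of -0.06, and 4 and 4 of 11 without those barcodes. The risers were Gap43, the microtubule-associated Map1b and the tubulin Tubb2a, and the fallers were Tubb3, Tuba1a, Tubb2b and Stmn1.

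By their fitted values Tubb2b, Stmn1 and Meg3 lay between the other neuron classes, and they were picked after these values were seen. Tubb2b stood at 266 and 823 CPM in WT and 565 and 351 in Dp(10)2Yey, against 43.0 to 316 in other mature and 2603 to 3768 in immature neurons. Leaving out the barcodes that stand apart, WT replicate 2 was at 415 and Dp(10)2Yey replicate 2 at 449 CPM. Its log2 fold changes were 2.74 and -2.62, or 2.30 and -2.88 without those barcodes, and it was higher than in other mature neurons in 3 of 4 libraries, since WT replicate 1 was not. Stmn1 stood at 2590 and 3019 CPM in WT and 2929 and 2549 in Dp(10)2Yey, against 420 to 660 and 3619 to 5199. Its log2 fold changes were 2.42 and -0.67, so it lay above 1 class and below the other. Meg3, a noncoding RNA of mature neurons, was at 2445 and 2783 CPM in WT and 2082 and 1560 in Dp(10)2Yey, against 2708 to 4132 and 70.4 to 240. It was lower than in other mature and higher than in immature neurons, with log2 fold changes of -0.68 and 4.03.

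Of the 10 immature neuron genes, 5 were tested and 4, Sox4, Tubb2b, Eomes and Stmn1, were lower, beside 13.9% of all genes, with a median of -2.62. Of 14 immediate early and dissociation genes, 9 were tested, Dusp1 was higher, Egr1 and Ier2 were lower and 6 did not pass, beside 15.5% higher and 13.9% lower of all genes. Egr1 stood at 266 and 261 CPM in WT and 1306 and 91.0 in Dp(10)2Yey against 873 to 1268 in immature neurons. In Dp(10)2Yey replicate 1 the difference went the other way from the other 3 libraries. Of 25 guidance and adhesion genes, 5 were tested, and Robo2 and Cntnap2 were higher here too, with log2 fold changes of 3.11 and 3.19, 2 of 5 beside 15.5% of all genes. Sema3c, a secreted semaphorin, was lower, 1 of 5 beside 13.9% of all genes. Its log2 fold change was -2.84, from 7 UMIs that all lay in barcodes that stand apart, and the fitted value without these was -7.52. Glutamate and GABA receptors had 1 gene tested each, Gria2 and Gabbr1, and neither passed (adjusted p = 0.0193 and adjusted p = 0.0336 by edgeR's quasi-likelihood test with Benjamini-Hochberg adjustment), with log2 fold changes of -0.63 and 0.98. Gria2 was called lower without the barcodes that stand apart, where Gabbr1 was not tested. Among other cell types, the astrocyte transporter gene Slc1a3 was lower, at -2.32, and -3.15 without those barcodes. Mbp, of myelin, did not pass with all barcodes (log2 fold change 1.05, adjusted p = 0.0256) and was called higher without those that stand apart (1.22, adjusted p = 0.00597), both by edgeR's quasi-likelihood test with Benjamini-Hochberg adjustment.

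Nr2f2, a nuclear receptor of caudal cortex, was chosen after its values were seen. It stood at 678 and 693 CPM in WT and 988 and 624 in Dp(10)2Yey, with 157 UMIs in 45 of 51 barcodes. Other mature neurons stood at 37.1 to 57.4 and immature neurons at 35.2 to 94.1. The log2 fold changes were 4.16 and 3.10, with both classes lower in 4 of 4 libraries.

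Of 19 genes of Reelin signalling, 18 had a UMI in Cajal-Retzius barcodes or other mature neurons, and 3 were tested in each comparison. None of Pafah1b1, which encodes Lis1, Cdk5r1, the activator of Cdk5, and the kinase Gsk3b passed in either. Pafah1b1 was at 460 and 392 CPM in WT and 494 and 533 in Dp(10)2Yey, with log2 fold changes of -0.53 and 0.49. Gsk3b was at 629 and 379 CPM in WT and 423 and 494 in Dp(10)2Yey. Dab1, the adaptor through which cells respond to Reelin, had 2 UMIs in the 51 barcodes, against 109 in other mature neurons, where it stood at 115 to 198 CPM. It was not tested. Of 16 genes of the p53 family and cell death, 1 was tested against other mature neurons and 3 against immature neurons. Cycs, cytochrome c, was lower than in other mature neurons (log2 fold change -1.43), at 145 and 78.4 CPM in WT and 70.6 and 169 in Dp(10)2Yey against 316 to 408. Bax, which permeabilizes mitochondria, did not pass against immature neurons, with a log2 fold change of -0.99.

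A further view, by a rule set after the values were seen, asked what share of all UMIs of a gene in the 4 libraries lay in the Cajal-Retzius barcodes. Among 1571 genes with at least 20 UMIs in the 45 barcodes that do not stand apart, the median share was 1.50%, 32 genes were above 25% and 18 above 50%. These shares are a description and were not tested. With the genes of the rule left out, highest was Lhx1os, with 67 of 72 UMIs, or 93.1%. Gm27199 (ENSMUSG00000098649, chr5:120419659-120431767), a noncoding gene that overlaps Lhx5 on the other strand, had 37 of 40, and the 3 UMIs outside were in neither neuron class nor in microglia. The noncoding genes thus lay beside Lhx1 and Lhx5. Barhl2 and Ecel1, an endothelin-converting enzyme relative, had 24 of 28 each.

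Further down were Nxph4, a neurexophilin that binds neurexins, with 70.1% of its UMIs, and Slc17a6 with 66.7%. Pnoc (ENSMUSG00000045731, chr14:65400673-65425472) and Penk (ENSMUSG00000045573, chr4:4133531-4138819) encode the opioid-family precursors prepronociceptin and proenkephalin. Pnoc stood at 266 and 274 CPM in WT and 282 and 65.0 in Dp(10)2Yey, with UMIs in 19 of 51 barcodes and 63.4% of all its UMIs. The low library was Dp(10)2Yey replicate 2. Penk had 36 UMIs in 7 barcodes, 0 and 21 in WT and 4 and 11 in Dp(10)2Yey, and 50.7% of its UMIs. The share of barcodes with a Penk UMI was 13.7% in Cajal-Retzius barcodes and 15.3% in other mature neurons, with median depths of 3852 and 4482 UMIs. At 1500 UMIs per barcode, which left out 2 and 6 barcodes, the shares were 8.16% and 3.80%, and the difference was not tested. A Penk UMI was present in 0.116% of microglia and 0 of 124 immature neurons, which allows a share of up to 2.42%. Syndig1l, Fam196a, Cacna2d2, Fam159b, 5330417C22Rik, Ankrd35 and Rec114, a gene of meiotic recombination, completed the 15 highest outside the genes of the rule, with shares from 46.3% to 72.7%. Fam196a overlaps Dock1 on the other strand and Rec114 overlaps Nptn on the other strand.

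**Figure D4:**
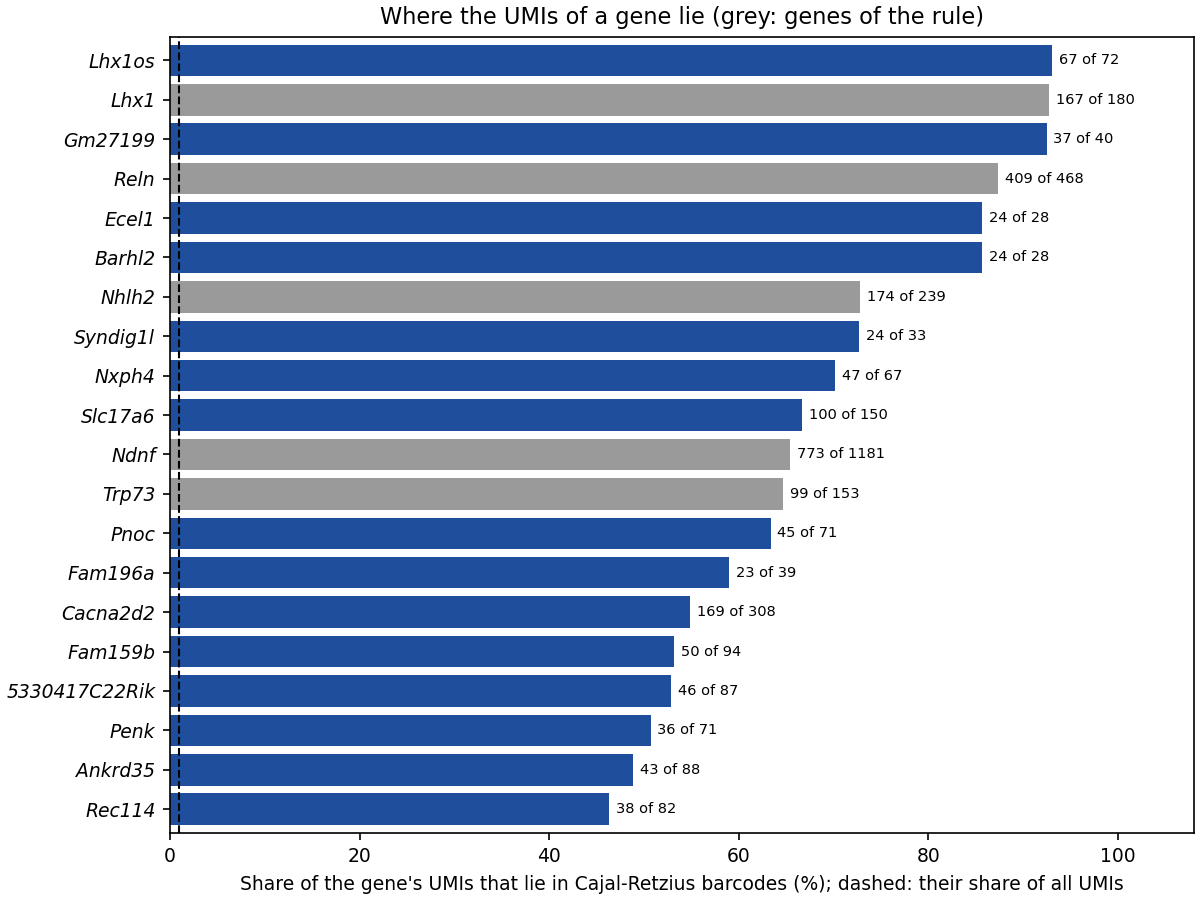
Bars give the share of all UMIs of a gene, over the 4 libraries, that lay in the 51 Cajal-Retzius barcodes, with the UMIs printed beside them, for the 15 highest genes (blue) and the genes of the rule (grey). The bars run from 46.3% to 93.1%, and the dashed line marks 0.939%, the share of these barcodes in all UMIs.

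The 15 genes of highest level outside mitochondrial and ribosomal protein genes were mostly shared with other cells. In order the first 14 were Malat1, Gm42418, Eef1a1, Ndnf, Ppia, Tmsb4x, Ubb, Fau, H3f3b, Stmn1, Ptma, Hsp90ab1, Pcp4 and Meg3. Malat1, a nuclear noncoding RNA, was at 33960 and 51632 CPM in WT and 28830 and 43223 in Dp(10)2Yey. Pcp4, a small calmodulin regulator, was at 2711 and 1947 CPM in WT and 2964 and 2107 in Dp(10)2Yey, and higher than in immature neurons, with a log2 fold change of 1.54. Ndnf was the sole gene of the rule among the 15. In all, 11921 genes had a UMI in the Cajal-Retzius barcodes, of 20437 with a UMI in the kept barcodes.

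Between genotypes, values are given by counts only, with 95% exact Poisson intervals that cover counting error alone. Among 1971 genes with at least 20 UMIs in the Cajal-Retzius barcodes, both Dp(10)2Yey libraries were above both WT libraries for 272 (13.8%) and below both for 336 (17.0%). The 5 genes of the rule summed to 7673 and 6861 CPM in WT and 8822 and 6892 in Dp(10)2Yey, and the genotypes overlapped. Without the barcodes that stand apart the sums were 7673 and 7706 CPM in WT and 8822 and 8666 in Dp(10)2Yey, with both Dp(10)2Yey libraries higher. Since these genes chose the barcodes, no ratio is given. The 14 identity genes summed to 4018 and 3110 CPM in WT and 3493 and 2445 in Dp(10)2Yey, and the genotypes overlapped.

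Calb2 was lower in both Dp(10)2Yey libraries, at 508 and 640 CPM in WT and 106 and 273 in Dp(10)2Yey. The ratio of Dp(10)2Yey to WT was 0.384 (95% interval 0.231 to 0.618), and 0.441 (95% interval 0.262 to 0.721) without the barcodes that stand apart. The WT intervals were 315 to 777 CPM and 474 to 847 CPM for replicates 1 and 2, and the Dp(10)2Yey intervals 21.8 to 309 and 169 to 417. The interval of WT replicate 1 thus overlapped that of Dp(10)2Yey replicate 2. In WT replicate 1 the level without its 1 barcode of 18 UMIs was 86.6 CPM, below both Dp(10)2Yey libraries. Barcodes with a Calb2 UMI were 2 of 8 and 12 of 19 in WT and 3 of 9 and 8 of 15 in Dp(10)2Yey, so on that scale the genotypes overlapped. In microglia, with a median of 3737 UMIs against 3852, the share with a UMI was 0.232%.

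Slc17a6 was also lower in both Dp(10)2Yey libraries, with 30 and 33 UMIs in WT and 11 and 26 in Dp(10)2Yey at the levels given above. The ratio was 0.658 (95% interval from 0.426 to just above 1), and 0.668 (95% interval 0.431 to 1.02) without the barcodes that stand apart, and both intervals include 1. Ramp1 was higher in both Dp(10)2Yey libraries, with a ratio of 1.26 (95% interval 0.993 to 1.60). In WT replicate 2 the level without the barcodes that stand apart was 1492 CPM, above the one in Dp(10)2Yey replicate 1 at 1341, and the genotypes overlapped. Cacna2d2, Ebf3, Zic1, Lhx1os, Kit and Cd274 overlapped between genotypes with and without those barcodes. Cxcl12 overlapped with all 51 barcodes and was higher in both Dp(10)2Yey libraries without the 6, at a ratio of 1.40 (95% interval 0.862 to 2.29).

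The duplicated segment was taken as chr10:76207222-78464975, with 62 protein-coding genes in the annotation, 61 of them in the count tables and 29 with a UMI in the Cajal-Retzius barcodes. Their UMIs summed to 55 and 95 in WT and 63 and 196 in Dp(10)2Yey, or 1331 and 1241 CPM in WT and 2223 and 2549 in Dp(10)2Yey. Both Dp(10)2Yey libraries were above both WT libraries, at a ratio of 1.93 (95% interval 1.58 to 2.38). Without the barcodes that stand apart the levels were 1331 and 1246 CPM in WT and 2223 and 2029 in Dp(10)2Yey, still without overlap, at a ratio of 1.63 (95% interval 1.29 to 2.07). S100b, a calcium-binding protein of glia, had 7 and 4 UMIs in WT and 3 and 34 in Dp(10)2Yey, 29 of the 34 in the 1 barcode with ependymal genes. Leaving S100b out gave 1162 and 1189 CPM in WT and 2117 and 2107 in Dp(10)2Yey and a ratio of 1.79 (95% interval 1.44 to 2.23).

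Single genes of the segment were sparse, and 7 had at least 20 UMIs. For S100b the ratio of Dp(10)2Yey to WT was 3.77, and 0.775 without the barcodes that stand apart. Both Dp(10)2Yey libraries were higher for Cstb and Rrp1, 2 of 7 beside 13.8% of all genes with at least 20 UMIs. The latter, of ribosomal RNA processing, was at 72.6 and 131 CPM in WT and 247 and 247 in Dp(10)2Yey, with a ratio of 2.24 (95% interval 1.11 to 4.75). Without the barcodes that stand apart the ratio was 1.86 (95% interval 0.876 to 4.16), an interval that includes 1. Cstb, an inhibitor of cysteine proteases, was at 169 and 105 CPM in WT and 176 and 247 in Dp(10)2Yey, with a ratio of 1.79 (95% interval 0.902 to 3.67), and 1.29 without those barcodes, where the interval includes 1 too. Prmt2, an arginine methyltransferase, Pcbp3, an RNA-binding protein, Trappc10, of vesicle tethering, Sumo3, a ubiquitin-like modifier, and S100b overlapped, with ratios from 1.12 to 3.77. Between cell classes, a list of 40 genes of the segment had 3 tested in each comparison. Against other mature neurons 1 of 3, Cstb, was higher, by 1.10 in log2, beside 16.5% of all genes. Cstb was not tested without the barcodes that stand apart.

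The immediate early and dissociation genes summed to 5301 and 4796 CPM in WT and 11998 and 4954 in Dp(10)2Yey. The high library was Dp(10)2Yey replicate 1 and the other 3 lay close together, so the genotypes overlapped. Fos had a UMI in 9 of 9 barcodes of that library, against 7 of 8 and 9 of 19 in WT replicates 1 and 2 and 8 of 15 in Dp(10)2Yey replicate 2. The same library was highest for Dusp1, Reln, Nhlh2, Ebf3, Zic1 and Cxcl12, and it had the lowest median depth, 3147 UMIs per Cajal-Retzius barcode against 3811 to 4694 in the others. Whether these go together was not tested.

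**Figure D5:**
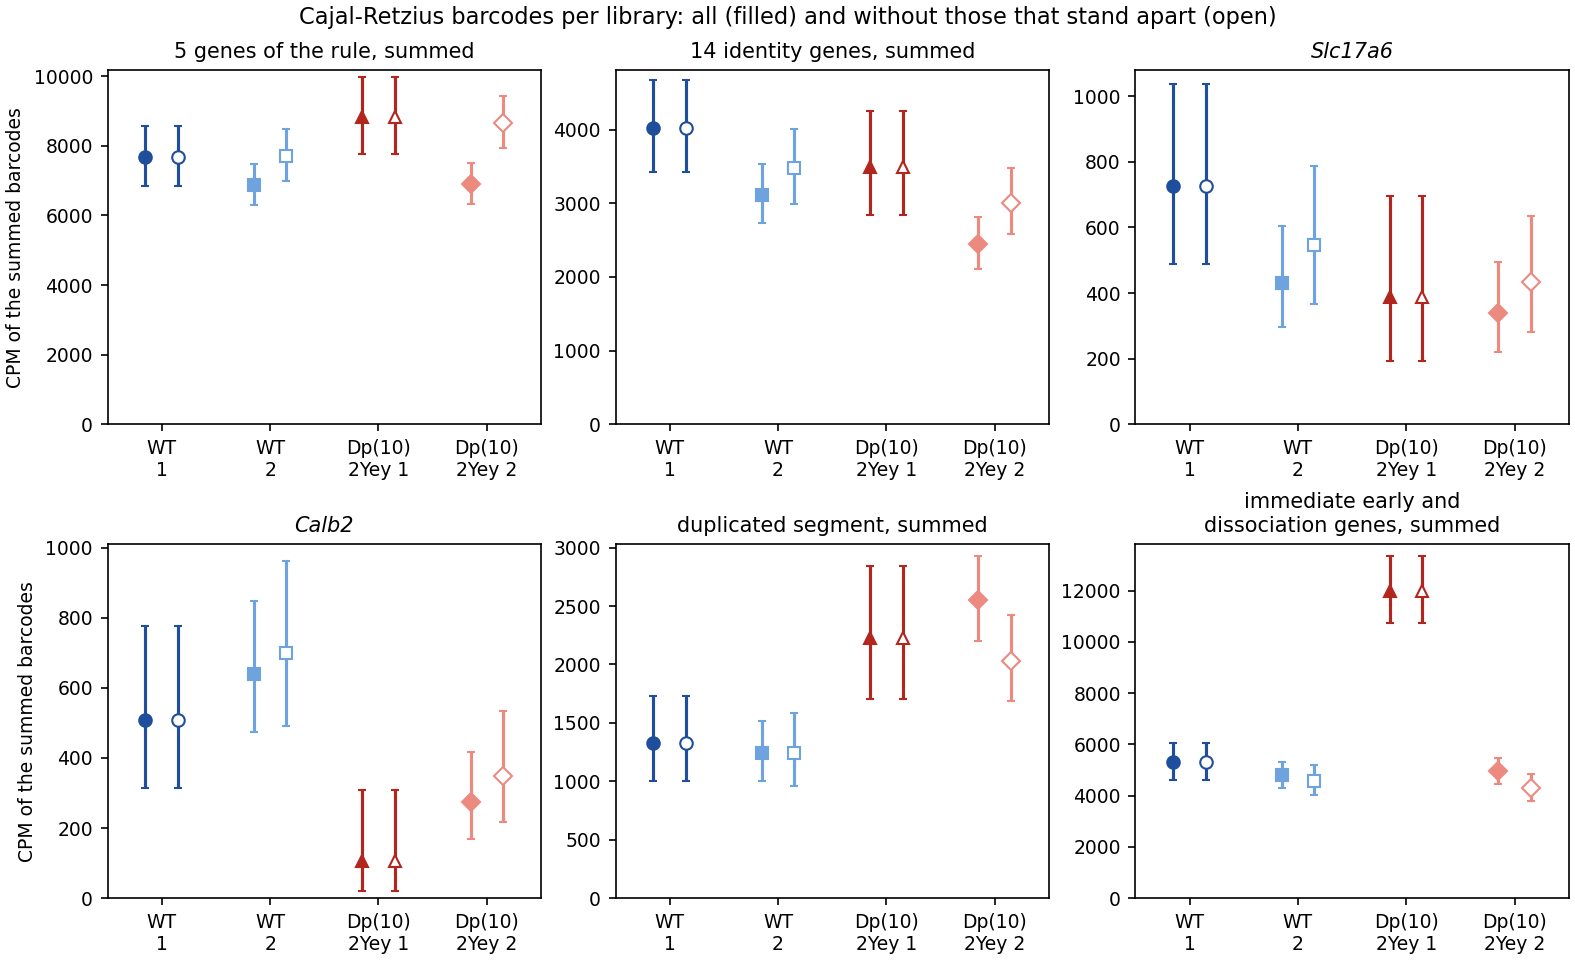
Each panel gives the level in CPM of a gene or a summed list in the Cajal-Retzius barcodes of each library, with 95% exact Poisson intervals, for all 51 barcodes (filled) and for the 45 that do not stand apart (open). The summed duplicated segment is above 1331 CPM, the higher WT level, in both Dp(10)2Yey libraries under either choice, and the immediate early genes stand out in Dp(10)2Yey replicate 1.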

How the data were processed

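The authors deposited raw UMI counts per gene and barcode, which Cell Ranger 3.0.2 made against a custom mm10 reference. Barcodes with at least 200 genes were kept and no other filter was applied in the main analysis. The members and the gene lists were chosen with earlier results of these data known. Scrublet in scanpy 1.11.5, run per library, called 53 doublets (0.844% of kept barcodes), which were kept. UMIs were summed per library and class, with at least 3 barcodes per class, and compared in edgeR 4.0.16 under R 4.3.3 (TMM normalization, filterByExpr by class, a library term, the quasi-likelihood test, Benjamini-Hochberg adjustment over all genes tested). Positive log2 fold changes mean higher in Cajal-Retzius barcodes. The SE beside a log2 fold change is its absolute value divided by the square root of the quasi-likelihood F statistic. Named genes were the 10 of largest change in each direction among those past the threshold whose level moved the same way in every library, the members of the gene lists and the 15 of highest level. The fit was tried on simulated counts first. Coordinates come from the GENCODE vM21 annotation of GRCm38. Intervals on shares are exact binomial, the limit given for 0 of N barcodes is 3/N, and intervals on ratios are exact conditional ones; all cover counting error alone. The adjusted p-values measure the spread between these 4 mice.

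The alternatives were a DESeq2 1.42.0 fit, size factors by RLE, all genes with a UMI in place of filterByExpr, a fit by class alone, a replicate block (genotype plus replicate number in place of the library term), a cutoff of 0.05, removal of called doublets, removal of barcodes over 20% mitochondrial UMIs, thinning of barcodes to 1500 UMIs, other limits of the rule, and each library left out. The fits and counts without the 6 barcodes that stand apart were added after the data were seen.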

Additional observations from a re-analysis of the deposited data

How the results depend on the processing

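The number of Cajal-Retzius barcodes was 52 with lower marker sums and 47 with a stricter rule. A sum of at least 3 UMIs over Ndnf, Lhx1, Trp73 and Nhlh2, which leaves out Reln and lowers the required sum, gave 56. The number was 45 with 0 UMIs of the 6 genes of other types and 49 without barcodes over 20% mitochondrial UMIs. With doublets removed it was 51, and without the barcodes that stand apart 45. It rose to 72 with no limit on genes of other types, and ranged from 32 to 43 with 1 library left out (32 without WT replicate 2, 36 without Dp(10)2Yey replicate 2), by the removal of members. Against other mature neurons the 480 calls became 354 with DESeq2, 487 with RLE size factors, 488 without a library term, 491 with the replicate block, 648 at a threshold of 0.05, 480 with doublets removed, 504 with the mitochondrial limit, 464 with the stricter rule and 295 to 508 with 1 library left out (295 without WT replicate 2). Against immature neurons the 369 calls became 266, 369, 367, 376, 536, 369, 357, 349 and 269 to 391 in the same order. Without the filter on low counts there were 1037 calls (337 higher, 700 lower) and 848 (368 higher, 480 lower), and the median log2 fold change of all genes moved to -0.34 and -0.25; the cause was not tested. Thinned to 1500 UMIs, 217 and 324 genes were tested, and 73 (28 higher, 45 lower) and 103 (45 higher, 58 lower) were called. Of the 480 calls against other mature neurons, 129 were still tested and 55 were called again. Of the 369 against immature neurons, 126 were still tested and 94 were called again. The cause of the lower counts was not tested. No call reversed its direction in these fits; of the other forms of the rule, the stricter one alone was fitted. With 8 to 19 Cajal-Retzius barcodes per library, genes of low level could not be tested, and genotype differences rest on 2 mice each.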
